A study of Homo sapiens with 4 samples.

Results

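Mismatch repair is the pathway that finds and removes bases that were paired wrongly during DNA replication. In the human pathway, heterodimers of the MutS family (MutSα, which contains MSH6, and MutSβ, which contains MSH3) bind the mismatch, heterodimers of the MutL family (which contain PMS2, PMS1 or MLH3) are recruited to it, and the exonuclease EXO1 removes the newly made strand. The pathway is known in leukemia therapy because 6-mercaptopurine (6-MP) is turned into thioguanine nucleotides that enter DNA, where methylated thioguanine mispairs and is bound by MutSα.

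The transcripts of 6 genes of this pathway, MSH6, MSH3, PMS2, MLH3, PMS1 and EXO1, are described here out of 29833 genes in the expression table. They were chosen by name, as members of the pathway, and all 6 were found in the table. The subunits with which these proteins pair were not analysed here. The cells were Reh-6-MPR, derived from Reh, a long-established human cell line of B-cell acute lymphoblastic leukemia, and made resistant to 6-MP, so that every library, the control included, comes from resistant cells. Cells were kept for 48 h in PBS as vehicle, in 4 mM histidine, in 1.0 μg/mL 6-MP, or in both agents at once (the combined treatment). The study asked what histidine does to the response of resistant cells to 6-MP. Each treatment has 1 RNA-seq library, so differences between treatments have no measured replicate spread and are given without p-values. The parental Reh cells and the proteins were not measured in these libraries.

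Levels are given as FPKM, the reads of a gene scaled by its length and by the total reads of its library. The reads behind each FPKM value were recovered from the steps of the values, and the libraries held between 12899122 reads (combined treatment) and 15486376 reads (histidine). Of the 9 B-lineage marker genes looked for, 8 were found, each at 1 FPKM or more in all 4 libraries, with a summed level between 755 and 857 FPKM. Of 5 myeloid markers 4 were found, with a summed level between 27.0 and 43.7 FPKM and the highest sum in the combined library. MPO, an enzyme of myeloid granules, made up most of that sum, at 26.4 to 41.0 FPKM. LYZ, which encodes lysozyme, was at 1.39 FPKM in the combined library and at most 0.324 in the others, and CSF1R, a receptor of monocytes, was at 1.25 FPKM there and at most 0.627 in the others. The 3 erythroid markers summed to at most 0.492 FPKM in any library. The part of these markers in the results was not tested. With bulk RNA, fewer cells of a kind and less RNA per cell cannot be told apart. All 95% intervals below cover counting error only and compare libraries, not treatments.

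MSH6 (ENSG00000116062) spans chr2:47695530-47810063 on the plus strand of GRCh38, and its longest coding transcript in GENCODE 29 has 10 exons and encodes 1360 residues. MSH3 (ENSG00000113318) lies at chr5:80654652-80876815 on the plus strand, with 24 exons and 1137 residues. PMS2 (ENSG00000122512) lies at chr7:5970925-6009106 on the minus strand, with 15 exons and 862 residues. MLH3 (ENSG00000119684) lies at chr14:75013769-75051532 on the minus strand, with 13 exons and 1453 residues. PMS1 (ENSG00000064933) shares chromosome 2 with MSH6, at chr2:189784085-189877629 on the plus strand, with 13 exons and 932 residues. EXO1 (ENSG00000174371) lies at chr1:241847967-241895148 on the plus strand, with 16 exons and 846 residues.

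E2F transcription factors are known to bind promoters of genes used in S phase, at sites close to the 8-mers TTTCCCGC, TTTCGCGC, TTTGCCGC and TTTGGCGC. These letters, on either strand, were looked for in the RefSeq promoters (GRCh38.p14), which hold 250 bases before and 50 bases after the most upstream start of each gene. At least 1 of these 8-mers was present in the promoters of 4 of the 6 genes, compared with 3.34% of all 27305 promoters and 5.93% of the 8201 promoters of protein-coding genes with a mean of at least 1 FPKM here. Those of MSH6, PMS2 and EXO1 are shown because, of the 3 kinds of motif looked for, this one set the 6 genes most apart from other promoters. Each is given as 30 bases read 5′ to 3′ on the strand of the gene, with the 8-mer in capitals. The MSH6 site is at chr2:47783137-47783166, the PMS2 site at chr7:6009131-6009160 and the EXO1 site at chr1:241848197-241848226.
MSH6: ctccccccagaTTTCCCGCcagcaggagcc
PMS2: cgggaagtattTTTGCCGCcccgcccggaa
EXO1: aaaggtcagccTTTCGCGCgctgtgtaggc
The 8-mers of MSH6 and EXO1 sit just downstream of the RefSeq start, with their first bases at positions 4 and 5 counted from the start as 1. The 8-mer of PMS2 begins 43 bases before the start and overlaps a GC box on the other strand that begins 39 bases before it. MSH3 holds 2 overlapping 8-mers on opposite strands, which begin 107 and 103 bases before the start. No such 8-mer is in the windows of MLH3 and PMS1. The gene models in the expression table begin upstream of the RefSeq starts used here for 4 of the 6 genes, by 87615 bases for MSH6, 365 for PMS1, 237 for EXO1 and 65 for MLH3. The CCAAT box (CCAAT) was present in 3 of the 6 promoters and in 35.7% of all promoters, and the GC box (GGGCGG) in 5 of the 6 and in 44.5% of all, or 71.7% of those of the expressed protein-coding genes. The 4 genes that share the E2F 8-mers did not share a direction in the libraries, as described below, and a match of letters does not show that a factor binds.

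MSH6, the mismatch-binding partner in MutSα, was the most abundant of the 6 transcripts. It was at 48.0 FPKM with vehicle (95% Poisson interval 46.9 to 49.1, 7530 reads), 46.8 with histidine, 48.0 with 6-MP and 34.6 in the combined library (33.6 to 35.6, 4890 reads). The combined library stood below the other 3, which overlapped each other, and its interval overlapped none of theirs. The read ratio of the combined treatment over vehicle was 0.721, a log2 ratio of -0.47 (exact Clopper-Pearson 95% interval -0.52 to -0.42). Against 6-MP alone the log2 ratio was -0.47 (-0.52 to -0.42), and against histidine alone -0.44 (-0.49 to -0.38). These 3 comparisons share the combined library and are not independent. Histidine alone differed from vehicle by a log2 ratio of -0.04 (-0.08 to 0.01), and 6-MP alone by 0.00080 (-0.04 to 0.05), both with intervals that include 0. When the libraries were scaled to the median gene as described below, the histidine value was -0.06 (-0.11 to -0.015), which excludes 0.

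MSH3, the partner in MutSβ, which binds larger insertion and deletion loops, was at 5.54 FPKM with vehicle, 5.31 with histidine, 5.30 with 6-MP and 6.01 in the combined library, from 413 to 438 reads a library. All 4 intervals overlapped. The log2 ratio of the combined treatment over vehicle was 0.12 (-0.08 to 0.31). Its sign turned, to -0.04 (-0.24 to 0.16), when the libraries were scaled to the median gene as described below. Within a library, MSH6 was at 8.66 times the FPKM of MSH3 with vehicle (95% interval 7.85 to 9.57) and at 5.76 times with the combined treatment (5.21 to 6.38), intervals that do not overlap.

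PMS2, the endonuclease partner in MutLα, was at 6.08 FPKM with vehicle, 6.22 with histidine, 5.85 with 6-MP and 5.41 in the combined library. The combined library was the lowest of the 4, with an interval (4.92 to 5.95) that overlapped those of the other 3. The log2 ratio was -0.17 against vehicle (-0.35 to 0.02), -0.11 against 6-MP (-0.30 to 0.07) and -0.20 against histidine (-0.38 to -0.020). With library totals, only the last interval excluded 0. When the libraries were scaled to the median gene, all of them did. The values were then -0.32 (-0.51 to -0.14), -0.26 (-0.44 to -0.08) and -0.33 (-0.51 to -0.15) in the same order. PMS2 has near-identical copies on chromosome 7, so its reads depend on how shared reads were counted, which is not given in the sources used here. The table lists 9 such copies. PMS2P3 was at 7.13 FPKM with vehicle and 9.90 with the combined treatment, PMS2CL went from 6.61 to 8.17, and PMS2P1 from 4.26 to 3.35. With library totals, reads summed over the 9 copies gave a log2 ratio of 0.13 (0.00091 to 0.26) for the combined treatment over vehicle, opposite in sign to that of PMS2. PMS2 and its copies together gave 0.03 (-0.07 to 0.14), so on that scale the lower value of PMS2 was not present in the family sum. Scaling to the median gene, described below, lowers every log2 ratio of this comparison by 0.16. That exceeds the values of both sums, which were not recomputed on that scale.

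MLH3, which forms MutLγ and is known mainly for its part in meiotic crossing over, was at 5.51 FPKM with vehicle, 5.21 with histidine, 5.15 with 6-MP and 4.59 in the combined library. The combined library was the lowest, and its interval (4.20 to 5.01) did not reach that of vehicle (5.09 to 5.94) but overlapped those of histidine and 6-MP. The log2 ratio was -0.26 against vehicle (-0.43 to -0.09), -0.16 against 6-MP (-0.34 to 0.0055) and -0.18 against histidine (-0.35 to -0.014). Scaled to the median gene, the value against 6-MP was -0.31 (-0.48 to -0.14), which excludes 0.

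PMS1, the partner in MutLβ, whose role in repair is less clear than that of PMS2, was at 10.3 FPKM with vehicle, 9.80 with histidine, 9.54 with 6-MP and 10.6 in the combined library. All 4 intervals overlapped. The log2 ratio of the combined treatment was 0.04 over vehicle (-0.10 to 0.19), 0.16 over 6-MP (0.013 to 0.30) and 0.12 over histidine (-0.03 to 0.26). The interval against 6-MP excluded 0 with the reads scaled by library totals and included 0 after scaling to the median gene (0.01, -0.14 to 0.16), and the value against vehicle turned to -0.11 (-0.26 to 0.03).

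EXO1, the exonuclease of the excision step, which is also used in DNA end resection, was at 19.7 FPKM with vehicle (18.6 to 20.9, 1167 reads), 18.1 with histidine (17.1 to 19.2), 19.5 with 6-MP (18.4 to 20.6) and 31.9 with the combined treatment (30.4 to 33.4, 1700 reads). The combined library was the highest and did not overlap the other 3, which overlapped each other. The read ratio of the combined treatment was 1.62 over vehicle, 1.63 over 6-MP and 1.76 over histidine, with log2 ratios of 0.69 (0.58 to 0.80), 0.71 (0.60 to 0.81) and 0.82 (0.71 to 0.92). With histidine alone the log2 ratio over vehicle was -0.12 (-0.24 to -0.0035), and with 6-MP alone -0.01 (-0.13 to 0.10). EXO1 thus had the widest range of the 6 genes over the 4 libraries.

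**Figure D1:**
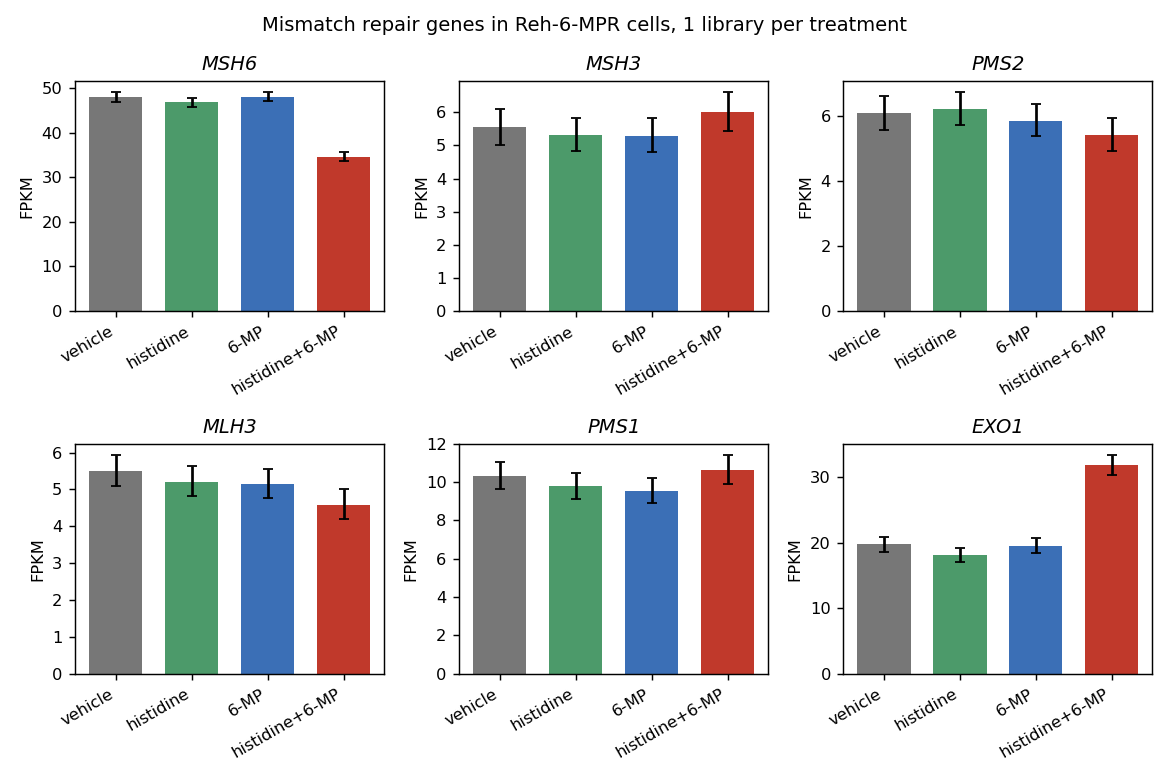
FPKM of the 6 mismatch repair genes in the 4 libraries, 1 panel per gene with its own axis from 0; bars are the deposited FPKM of 1 library and whiskers the exact 95% Poisson interval of its reads. In the combined library MSH6 (34.6) stands below and EXO1 (31.9) above the other 3 libraries, while the 4 intervals of MSH3 overlap, as do those of PMS2 and of PMS1.

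The order of the transcripts was MSH6, EXO1 and PMS1 in all 4 libraries, followed by PMS2, MSH3 and MLH3, whose neighbours in the order had overlapping intervals. In the combined library MSH3 stood above PMS2 by FPKM, with overlapping intervals. The intervals of MSH6 and EXO1 also stayed apart there, although MSH6 was 2.44 times EXO1 with vehicle (95% interval 2.29 to 2.59), 2.59 times with histidine, 2.46 times with 6-MP and 1.09 times in the combined library (1.03 to 1.15). This ratio is taken within a library and does not depend on how libraries are scaled, but its size depends on the lengths used. Per coding length, added after seeing the data, MSH6 was 4.01 times EXO1 with vehicle (3.77 to 4.27) and 1.79 times in the combined library (1.69 to 1.89), so the ratio was lower in the combined library by either length and near 1 only by the deposited one. Of the reads of the 6 genes, MSH6 took 67.7% with vehicle, 68.2% with histidine, 68.6% with 6-MP and 56.3% in the combined library. EXO1 took 10.5%, 9.96%, 10.5% and 19.6% of them in the same order. The 6 genes together held 777 RPM (reads scaled to the library total) with vehicle, 752 with histidine, 767 with 6-MP and 673 in the combined library (659 to 687). The deposited FPKM use a length of 10955 bases for MSH6, which counts all exons of its models. As RPM for each kilobase of coding sequence, MSH6 was at 129, EXO1 at 32.1, PMS1 at 20.2, PMS2 at 14.6, MLH3 at 10.6 and MSH3 at 8.66 with vehicle, so that MSH3 and MLH3 changed places. Among the 12750 genes with a mean of at least 1 FPKM, MSH6 stood at percentile 93.8 by FPKM with vehicle and EXO1 at 82.0, while MSH3, PMS2 and MLH3 stood between 46.7 and 49.7.

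The 6 genes were next read against all 12750 genes with a mean of at least 1 FPKM. A gene was counted as past the fold threshold where the difference of log2(FPKM + 1), written log2FC here, was at least 1 in absolute size, which understates the change of low genes. None of the 6 passed it in any of the 5 comparisons. Of all genes, 1.33% passed it for histidine against vehicle, 1.18% for 6-MP against vehicle, 6.53% for the combined treatment against vehicle, 6.02% for the combined treatment against 6-MP and 5.55% for the combined treatment against histidine. Beside shares this low, a count of 0 among 6 genes says little about the pathway.

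With 1 of the treatments alone, the 6 genes stayed near vehicle. For histidine against vehicle, the read ratio interval excluded 0 for 1 of 6 genes (EXO1, lower), compared with 21.6% of all genes. For 6-MP against vehicle it excluded 0 for 0 of 6, compared with 17.9% of all genes. The median log2FC of the 6 genes was -0.06 for histidine and -0.05 for 6-MP, beside 0.015 and 0.0039 for all genes. With histidine 5 of the 6 values were below 0, and with 6-MP 5 of 6, against the same vehicle library. With library totals, only EXO1 with histidine among these values had an interval that excluded 0. The share of all genes below 0 was not computed, so these counts of signs carry little weight.

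With the combined treatment against vehicle, the interval was above 0 for 1 of 6 genes (EXO1), compared with 42.7% of all genes, and below 0 for 2 of 6 (MSH6 and MLH3), compared with 20.8% of all genes. Against 6-MP it was above 0 for 2 of 6 (EXO1 and PMS1; 42.2% of all genes) and below 0 for 1 of 6 (MSH6; 21.2%). Against histidine it was above 0 for 1 of 6 (EXO1; 41.2%) and below 0 for 3 of 6 (MSH6, PMS2 and MLH3; 22.1%). The median log2FC of the 6 genes was -0.05 against vehicle, 0.02 against 6-MP and -0.02 against histidine, beside 0.13, 0.13 and 0.11 for all genes. By log2FC against vehicle, MSH6 (-0.46) was at percentile 8.42 of all genes, MLH3 (-0.22) at 19.3, PMS2 (-0.14) at 24.8, PMS1 (0.04) at 40.1, MSH3 (0.10) at 46.3 and EXO1 (0.67) at 87.5. Thus 5 of the 6 genes lay below the median gene of this comparison and EXO1 above it. MSH3 and PMS1 were not set apart from the median, since their read ratio intervals held that of all genes (0.16). Against 6-MP they were at percentiles 52.8 and 51.7, and against histidine at 54.4 and 50.1, above the median gene.

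**Figure D2:**
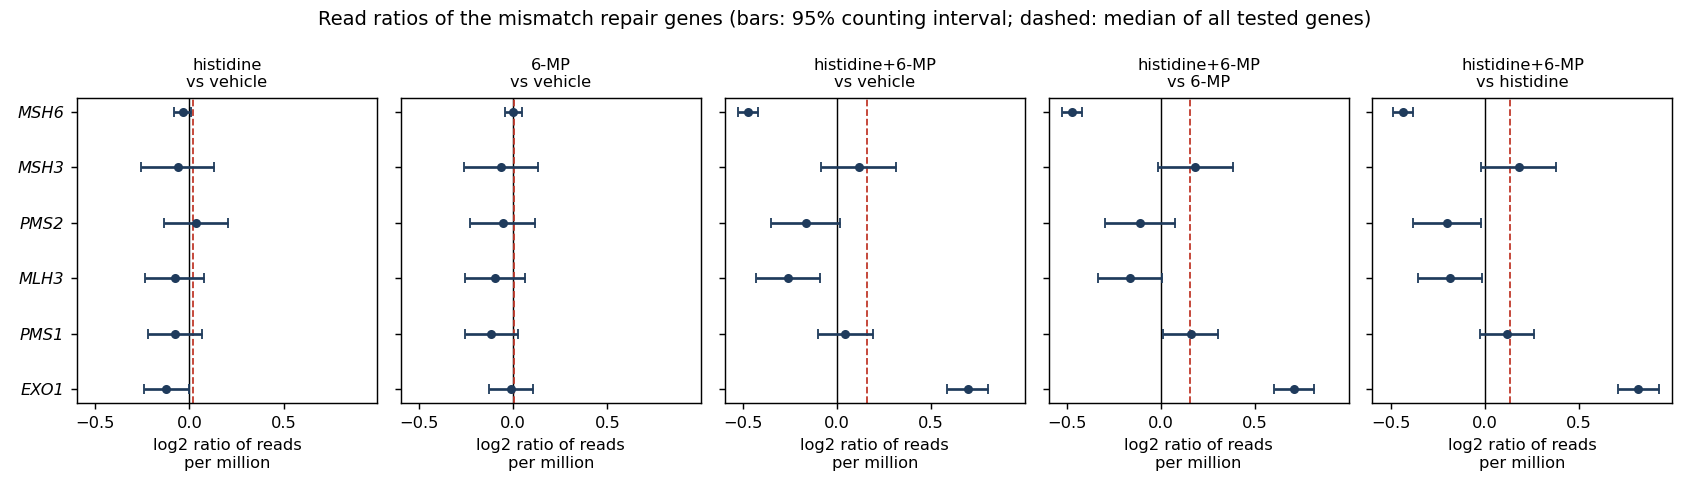
Log2 ratios of recovered reads, scaled to library totals, of the 6 genes in the 5 comparisons, 1 panel per comparison on a shared axis; points are ratios of 1 library over another, bars exact 95% intervals of counting error, and the dashed line the median of all 12750 genes. In the 3 panels with the combined treatment, MSH6 lies left of 0 and EXO1 right of the dashed line, and in the other 2 panels all points lie between -0.12 and 0.03.

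The median gene itself was higher in the combined library, so the scale between libraries matters for small differences. Dividing each library by its median ratio to the geometric mean over 12610 genes (those with a mean of at least 1 FPKM and above 0 in all libraries) lowered every log2 ratio of the combined treatment over vehicle by 0.16. On that scale the interval was above 0 for 1 of 6 genes (EXO1, 0.54, 0.43 to 0.65), compared with 30.2% of all genes, and below 0 for 3 of 6, compared with 30.7%. The 3 were MSH6 (-0.63, -0.68 to -0.58), MLH3 (-0.42, -0.59 to -0.25) and PMS2 (-0.32, -0.51 to -0.14). With size factors from 19624 genes, low ones included, the shift was 0.24 and PMS1 was also below 0. The directions of MSH6, MLH3, PMS2 and EXO1 against vehicle were the same on all these scales with PMS2 taken without its copies, and those of MSH3 and PMS1 were not.

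**Figure D3:**
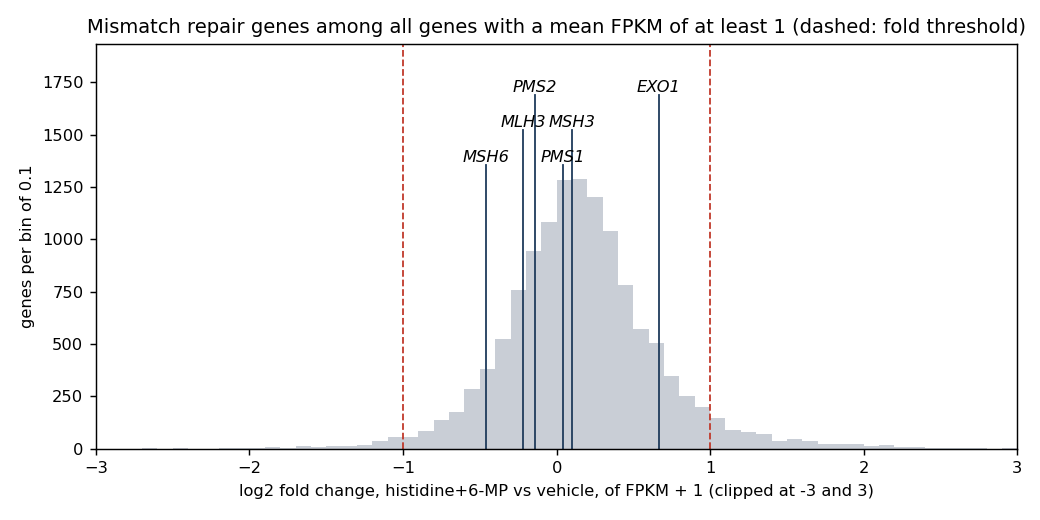
Histogram of the log2FC of the combined treatment over vehicle for the 12750 genes, in bins of 0.1, with a vertical line for each of the 6 genes and dashed lines at the fold threshold of 1. MSH6 (-0.46) lies in the lower part and EXO1 (0.67) in the upper part of the bulk of genes, and none of the 6 passes the threshold.

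The design also asks whether the difference with 6-MP is the same with and without histidine. Without histidine, MSH6 differed by a log2FC of 0.00078 with 6-MP, and with histidine by -0.43. EXO1 differed by -0.01 without and by 0.78 with histidine. The departure from additivity, the difference of these differences on the scale of log2 reads, was -0.44 for MSH6 (95% normal interval from the 4 read counts, -0.51 to -0.37), 0.83 for EXO1 (0.67 to 0.99) and 0.24 for PMS1 (0.034 to 0.44). With library totals, these 3 intervals excluded 0. Those of MSH3 (0.25, -0.03 to 0.52), PMS2 (-0.14, -0.39 to 0.10) and MLH3 (-0.09, -0.31 to 0.14) included 0. The interval was thus above 0 for 2 of 6 genes, compared with 34.2% of all genes, and below 0 for 1 of 6, compared with 19.7%. No departure of the 6 genes reached 1 in absolute size on the log2(FPKM + 1) scale, beside 6.76% of all genes, and the median departure of all genes was 0.11. With 99% intervals, those of MSH6 and EXO1 still excluded 0 and that of PMS1 (-0.03 to 0.50) included it. The departures also depend on the scale between libraries. On the log2(FPKM + 1) scale, scaling to the median gene took PMS1 from 0.21 to 0.10 and PMS2 from -0.12 to -0.23. MSH6 went from -0.43 to -0.55 and EXO1 from 0.79 to 0.68. The number of intervals that excluded 0 was 3 on that scale and 4 with size factors from 19624 genes. The genes were not the same as with library totals. PMS2 took the place of PMS1 on the first of these scales, and MLH3 was added on the second. The shares of all genes on these 2 scales are not given here.

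Several of the 6 genes start next to a gene on the opposite strand. AIMP2, a scaffold protein of the tRNA synthetase complex, starts 149 bases from PMS2. It was at 25.1 FPKM with vehicle, 25.1 with histidine, 25.0 with 6-MP and 12.4 in the combined library, so its combined library was far below the other 3. Its log2 read ratio over vehicle was -1.02 (-1.22 to -0.82), while that of PMS2 was -0.17 (-0.35 to 0.02), and these intervals do not overlap. ORMDL1, a regulator of sphingolipid synthesis, starts 279 bases from PMS1, within a shared stretch of 280 bases. It was at 16.2 FPKM with vehicle, 15.9 with histidine, 15.4 with 6-MP and 33.4 in the combined library, with a log2 read ratio over vehicle of 1.04 (0.93 to 1.16). PMS1 was at 0.04 (-0.10 to 0.19) in the same comparison, and these intervals do not overlap either. The start of EXO1 in the expression table lies 161 bases from that of a non-coding gene (ENSG00000288723), which was at 0 in 3 libraries and had 1 read in the combined one. The longest overlap of any of the 6 was that of MSH6 with FBXO11 on the opposite strand, over 20748 bases. FBXO11, a ubiquitin ligase subunit named for this overlap after its values were seen, was at 5.58 FPKM with vehicle and 5.16 with the combined treatment, with a log2 read ratio of -0.11 (-0.25 to 0.02). The setting for strand in the counting is not given in the sources used here, so reads from the overlapping stretches could not be assigned with certainty.

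**Figure D4:**
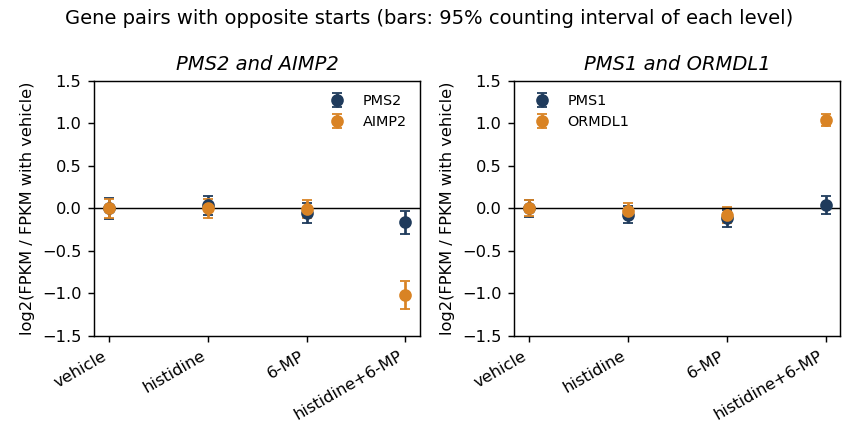
Levels of PMS2 and PMS1 (dark points) and of the genes that start next to them on the opposite strand (orange points), as log2 of FPKM over the FPKM with vehicle in the 4 libraries; bars are the 95% Poisson intervals of each level. In the combined library AIMP2 lies near -1.02 and ORMDL1 near 1.04, away from PMS2 and PMS1.

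The pattern of EXO1, the gene with the widest range, was compared with that of 6734 other protein-coding genes with a mean of at least 5 FPKM, by the Euclidean distance of the 3 log2FC values against vehicle. Of the 5 nearest, 4 were CD74, the invariant chain of MHC class II (distance 0.04), ERP29, a chaperone of the endoplasmic reticulum (0.05), CDKN2AIP (0.05) and TTC14 (0.06). CD74 was at 202 FPKM with vehicle and 324 with the combined treatment. With a pseudocount of 0.1, PLOD3 took the place of CDKN2AIP. The likeness rests on 3 differences from the same vehicle library.

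The genes that act with the 6 were described by their counts in the combined treatment against vehicle. Read ratio intervals above 0 and below 0 were found for 42.7% and 20.8% of all genes, 5.01% of all genes were at least 1 higher in log2FC and 1.51% at least 1 lower, and the median of all genes was 0.13. Of the 15 partners of excision and resynthesis, namely the sliding clamp PCNA, the clamp loader RFC, the single-strand binding protein RPA, DNA polymerase δ, DNA ligase 1 and HMGB1, 10 had an interval above 0 and 3 below 0. Their median was 0.22, and none passed the fold threshold. POLD4 (0.87 to 1.83 FPKM, log2FC 0.60) and LIG1 (18.9 to 28.3 FPKM, 0.56) were highest, and POLD2 (64.1 to 38.4 FPKM, -0.73) and HMGB1 (205 to 136 FPKM, -0.59) lowest. The 2 ends of this list thus held 2 subunits of the same polymerase. PCNA, named after its values were seen because it binds both MSH6 and MSH3, was at 377 FPKM with vehicle and 440 with the combined treatment (0.22).

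Of 5 genes listed as related or recruiting, 3 had a mean of at least 1 FPKM, and 2 of these had an interval above 0. HMCES, which shields abasic sites and is neither a MutS nor a MutL gene, had a log2FC of 0.33. The nuclease FAN1, a binding partner of MutL proteins, was at 0.21. SETD2, the methyltransferase whose histone mark recruits MutSα, was at 0.05. The meiotic MutS genes were near the floor, MSH4 at 0.53 FPKM with vehicle and 1.28 with the combined treatment and MSH5 at no more than 0.044 in any library. Of 17 other repair nucleases and helicases with a mean of at least 1 FPKM, 13 had an interval above 0 and 1 below 0, with a median of 0.28 and none past the fold threshold. The scaffold XRCC1 (13.2 to 26.2 FPKM, 0.93) and the nuclease MRE11 (13.5 to 21.9 FPKM, 0.66) were highest, and the nuclease scaffold SLX4 (4.05 to 2.92 FPKM, -0.36) and the helicase WRN (7.00 to 6.63 FPKM, -0.07) lowest.

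Of 14 genes of the ATR and CHK1 checkpoint, which mismatch repair is known to engage after thiopurines, 7 had an interval above 0 and 3 below 0, with a median of 0.14. RAD17 (0.48) and CLSPN (0.43) were highest, and WEE1 (-0.48) and TIPIN (-0.37) lowest. RAD17 was also high with 6-MP alone, at 8.73 FPKM beside 5.69 with vehicle, 5.59 with histidine and 8.31 with the combined treatment. Of 20 S phase genes, 9 had an interval above 0 and 10 below 0, with a median of -0.02, 1 gene at least 1 higher and 1 at least 1 lower. The licensing factor CDT1 (47.4 to 115 FPKM, 1.26) and cyclin E2 (CCNE2, 6.20 to 12.6 FPKM, 0.92) were highest, and UHRF1 (442 to 183 FPKM, -1.27) and the replicative helicase subunit MCM6 (92.5 to 57.2 FPKM, -0.68) lowest. EXO1 (0.67) and MSH6 (-0.46) lay inside this range, on different sides of the list median. The E2F 8-mers were not counted for the promoters of this list. Of 16 G2 and M phase genes, 0 had an interval above 0 and 15 below 0, with 5 at least 1 lower and a median of -0.65. CDC20 (157 to 35.3 FPKM, -2.12) and the kinase PLK1 (44.9 to 9.63 FPKM, -2.11) were lowest, and AURKB (0.0041) and KIF11 (-0.15) highest. After scaling to the median gene, the list medians were 0.07 for the excision and resynthesis partners, 0.12 for the related and recruiting genes, 0.13 for the nucleases and helicases, 0.0032 for the checkpoint, -0.17 for S phase and -0.81 for G2 and M phase. With size factors from 19624 genes, those of the excision and resynthesis partners (-0.02) and of the checkpoint (-0.07) turned sign. The part of cell cycle position in the values of MSH6 and EXO1 was not tested.

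**Figure D5:**
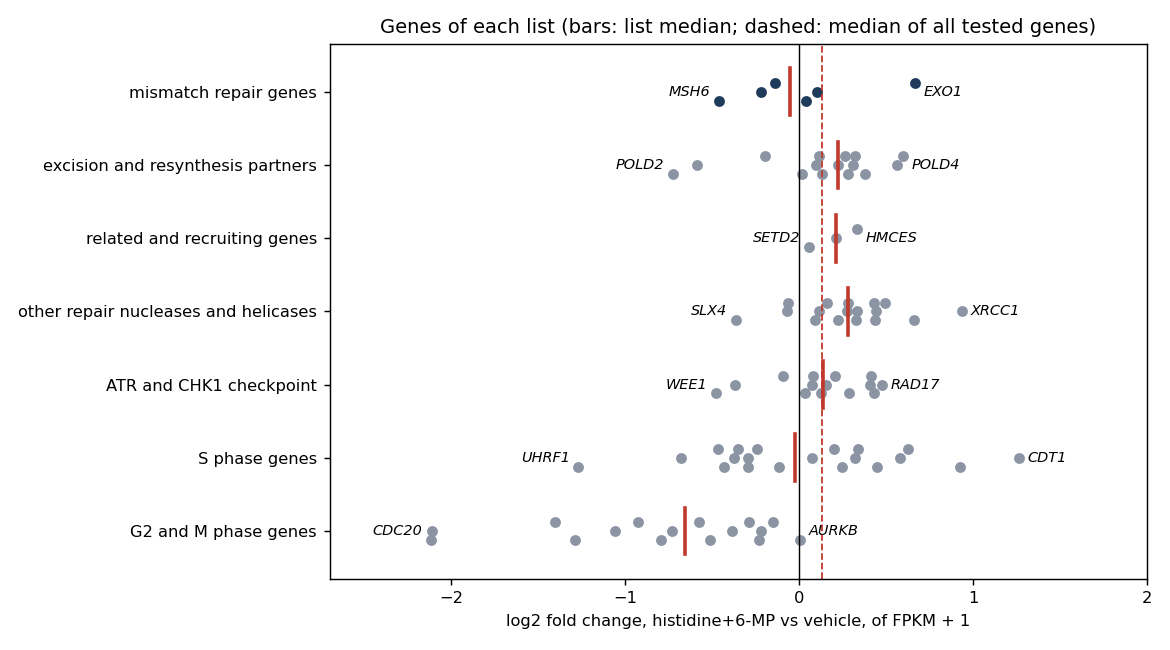
Log2FC of the combined treatment over vehicle for the genes of each list with a mean of at least 1 FPKM, 1 row per list and 1 point per gene; red bars are list medians, the dashed line is the median of all genes (0.13), and the lowest and highest gene of each list are named. The points of the G2 and M phase list lie at or below 0 apart from AURKB (0.0041), and the 6 mismatch repair genes run from MSH6 (-0.46) to EXO1 (0.67).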

How the data were processed

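RNA was extracted from Reh-6-MPR cells after the 4 treatments, and poly(A) libraries were sequenced by a service company. The authors deposited 1 table of FPKM values for 29833 genes, with symbols, biotypes and positions. Per the submitters' processing notes, Trimmomatic, HISAT2, Cufflinks, HTSeq and GRCh38 were used. Their versions and the counting options are not given in the sources used here. FPKM divides by the length of a gene and by the reads of its library, so a few abundant genes that change can shift all others. Of the value columns, 0 belonged to no sample. The DESeq2 comparison of the authors was not repeated, since there is 1 library per treatment.

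Whole reads were recovered from the FPKM steps for 29831 genes (within 0.002 of a whole number), with exon lengths from GENCODE 29, which holds 28905 of the genes. Lengths were multiplied by whole numbers up to 6 to come within 5% of the annotation, a limit chosen once recovered and library totals had been compared. Of the 6 genes, MSH3 (5329 bases against 4709 in GENCODE 29) and PMS2 (6231 against 3936) did not come within it. For these the shortest length that gave whole reads was kept, so their reads are the fewest that fit the values. Log2FC was the difference of log2(FPKM + 1), for 12750 genes with a mean of at least 1 FPKM. Exact Poisson intervals were used for levels and exact Clopper-Pearson intervals for read ratios. The 6 genes, the 6 gene lists and the 4 marker lists were chosen with earlier results of these data known. Genes named are the 6 members, the PMS2 copies, the nearest opposite-strand start within 1000 bases, the 2 highest and 2 lowest genes of each list by log2FC of the combined treatment over vehicle, and the 5 protein-coding genes nearest to the member with the widest range, and 2 genes that these rules or lists hold are not reported here. The T cell markers and 2 further marker genes were not analysed here, nor were protein sequences. The recovery and interval steps were tested on simulated data. Promoters came from RefSeq (GRCh38.p14), which matched all 6 genes. Alternatives were another pseudocount, no pseudocount, other scalings, filters, thresholds and interval levels. The tools were scipy 1.17.1, pandas 2.3.3, numpy 2.4.6 and matplotlib 3.10.9 under Python 3.11.15.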

Additional observations from a re-analysis of the deposited data

Results flagged for a closer look

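In 4 of the 6 genes, the log2FC of 6-MP had opposite signs without histidine (6-MP against vehicle) and with it (the combined treatment against histidine). For MSH6 it was 0.00078 without histidine and -0.43 with it. For EXO1 it was -0.013 without and 0.78 with it. For MSH3 it was -0.056 without and 0.15 with it, and for PMS1 -0.11 without and 0.11 with it. With 1 library per treatment the difference was not tested over samples. The values without histidine all lie within counting error of 0, so their signs carry little weight. The log2FC of all genes for 6-MP against vehicle also lay around 0, with quartiles of -0.074 and 0.086. The share of all genes with opposite signs was not computed, so the count of 4 is not read as a trait of the 6 genes. After scaling by size factors from 19624 genes, only EXO1 of these 4 kept opposite signs, at -0.02 without histidine and 0.59 with it. MSH6 was then at -0.0066 and -0.62, MSH3 at -0.06 and -0.02, and PMS1 at -0.11 and -0.08.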

How the results depend on the processing

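No paired analysis was possible because there is only 1 library of each kind, which also means that none could be left out. No member passed the fold threshold under any pseudocount, scaling or stricter threshold tried. Of 150 member log2FC values recomputed with a pseudocount of 0.1, without pseudocount, by median-ratio scaling over 19624 genes, by TPM or, added after seeing the data, by median-ratio scaling over 12610 genes, 21 moved by more than their counting error and 13 had the opposite sign. With the scaling over 19624 genes the combined treatment gave the 6 genes a median log2FC of -0.26 against vehicle, -0.18 against 6-MP and -0.20 against histidine. The number of genes whose interval excluded 0 was then 5 of 6 for the combined treatment against vehicle, compared with 61.8% of all genes. Against 6-MP it was 4 of 6 (EXO1 above 0, and MSH6, PMS2 and MLH3 below), compared with 62.3% of all genes. These counts are near the shares of all genes. For histidine against vehicle it was 2 of 6 (MSH6 and EXO1), compared with 23.3% of all genes, and also 2 with 12610 genes. At 99% the number was 0 for histidine against vehicle and 2 for the combined treatment against histidine. The shares of all genes at 99% are not given here. With the scaling over 19624 genes, the log2FC of PMS1 against 6-MP turned from 0.14 to -0.070, and its read ratio interval (-0.22 to 0.07) included 0. With library totals, PMS2 summed with its copies turned sign in the combined comparisons, to 0.11 against 6-MP and 0.078 against histidine. The percentage of all genes past the threshold depended most on the settings, in the order histidine and 6-MP against vehicle, then the combined treatment against vehicle, 6-MP and histidine. It was 3.05, 3.05, 11.9, 11.0 and 10.0 with a pseudocount of 0.1, and 2.85, 2.85, 12.1, 11.0 and 10.4 with none. By TPM, with the filter and the pseudocount at 1 TPM in place of 1 FPKM, it was 6.46, 6.47, 17.3, 16.2 and 15.7. It was 0.285, 0.231, 4.11, 3.65 and 3.58 with a mean of at least 5 FPKM. At a log2FC of 1.5 it was 0.392, 0.400, 2.09, 1.93 and 1.76, and for protein-coding genes 0.190, 0.150, 4.22, 3.81 and 3.55. With no filter the combined treatment gave 4.17 against vehicle and 3.93 against 6-MP. Counting error at 413 to 438 reads left MSH3 with intervals about 0.4 wide on the log2 scale, and all 5 of its comparisons included 0.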
